A study of Mus musculus with 10 samples.

Results

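The genes described here are the auxiliary subunits of the AMPA-type glutamate receptor: the TARPs (transmembrane AMPA receptor regulatory proteins) Cacng2, Cacng3, Cacng4, Cacng5, Cacng7 and Cacng8, the cornichons Cnih2 and Cnih3, the CKAMP44 gene Shisa9, and Gsg1l. They were chosen by gene symbol, and all 10 were found among the 54309 genes of the quantification, as 26 of its 140789 transcripts. Their RNA was measured by poly-A RNA-seq in 10 libraries of L4 and L5 dorsal root ganglia (DRG) of C57BL/6 mice aged 6 to 8 weeks. The left sciatic nerve had been cut (axotomy) or only exposed (sham) 24 h earlier, and the DRG came from the operated side. Each sex had 2 sham and 3 axotomy libraries, and each library pooled 2 mice, so the spread between libraries is that between pools. A DRG holds the somata of primary sensory neurons together with satellite glia, Schwann cells, fibroblasts and immune cells.

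AMPA receptors are cation channels built of 4 pore subunits, encoded by Gria1 to Gria4, and carry most fast excitatory transmission in the nervous system. Auxiliary subunits bind the pore in the membrane, take part in its traffic to the surface and set its gating. Several TARPs, among them the product of Cacng2, slow deactivation and desensitization and relieve block by polyamines, but not every TARP does so. Cornichons also act as export factors of the endoplasmic reticulum and slow channel closing, whereas CKAMP44 and GSG1L slow the recovery from desensitization. In primary afferents, receptor made in the soma is carried to central terminals in the dorsal horn and to peripheral endings.

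TARPs fall into type I (Cacng2, Cacng3, Cacng4, Cacng8) and type II (Cacng5, Cacng7), and type I proteins end in a tail that binds PDZ domains of synaptic scaffolds. The ends of the coding sequences are shown because they separate both classes, which also stood at different levels in sham DRG. After axotomy the levels of Cacng5 (type II) and Cacng2 (type I) overlapped. Each line gives the last 30 coding bases before the stop codon of the most abundant coding transcript with an annotated stop, from Gencode M21 (GRCm38), with the last 4 codons in capitals. Each stretch lies in 1 coding exon.
Cacng2, chr15:77995152-77995181, minus strand: aacacagccaaccgccggACCACGCCCGTA
Cacng3, chr7:122768814-122768843, plus strand: aatccggccaacagacgtACCACGCCTGTC
Cacng4, chr11:107734783-107734812, minus strand: agcatgctgaaccggcggACGACTCCCGTG
Cacng8, chr7:3415573-3415602, plus strand: aacacgctcaacaggaaaACCACGCCCGTG
Cacng5, chr11:107877355-107877384, minus strand: gactatgaccagatgtcaTCATCTCCCTGC
Cacng7, chr7:3366916-3366945, plus strand: gaccatctccacatctccACTTCGCCGTGC
Shisa9, chr16:12267771-12267800, plus strand: atcactaacagcaaaacaGAAGTGACTGTC
Of the 12 bases in capitals, Cacng8 shared 11 with Cacng2, Cacng3 shared 10 and Cacng4 shared 9. The type II genes shared fewer, 6 in Cacng7 and 5 in Cacng5, and Shisa9, whose protein also ends in a PDZ-binding tail, shared 4. Cacng7 and Cacng8 lie close together on chromosome 7, as do Cacng4 and Cacng5 on chromosome 11.

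The libraries held 55258476 to 90111671 assigned read pairs, male axotomy 2 being the deepest. Levels are given as TPM (transcript abundance corrected for transcript length and scaled to the same total in each library), summed per gene. A list of 15 sensory neuron markers summed to 13600 to 15848 TPM in sham, 11784 to 12398 TPM in female axotomy and 9041 to 12483 TPM in male axotomy libraries, with no overlap between sham and axotomy. Macrophage markers went the other way, from 58.6 to 90.6 TPM in sham to 91.6 to 181 TPM after axotomy, and mitochondrial reads were 3.01% to 3.27% in sham and 3.44% to 5.11% after axotomy. In whole ganglia, fewer cells of a type and less RNA per cell cannot be told apart. A list of 11 markers of CNS glia and interneurons, cells that a DRG should lack, summed to 11.7 to 15.2 TPM over all libraries, and the oligodendrocyte factor Olig2 and the inhibitory transporters Slc6a5 and Slc32a1 averaged under 0.1 TPM each. Most of this sum was Aqp4, at 2.65 to 6.35 TPM, and the oligodendrocyte myelin genes Mog and Mobp on the list did move, as given below beside Shisa9.

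Cacng7, the type II TARP known as gamma-7, was by far the most abundant auxiliary subunit in DRG. Its TPM was 58.9 and 61.2 in the female sham and 64.8 and 68.1 in the male sham libraries. Over the 4 sham libraries it averaged 63.3 ± 4.00 TPM (SD), and next came Cnih2 with 14.2 ± 1.22, Cacng5 with 10.9 ± 1.0 and Cacng2, the gene of stargazin, with 6.79 ± 0.58 TPM. These 4 genes did not overlap with each other in sham. Cacng4 (3.42 ± 0.97 TPM), Cnih3 (3.34 ± 0.25) and Gsg1l (3.13 ± 0.13) overlapped with their neighbours in this order. Cacng8, a main TARP of hippocampus, stood at 1.69 ± 0.41, Cacng3 at 0.76 ± 0.12 and Shisa9 at 0.44 ± 0.15 TPM, the last 2 again overlapping. After axotomy Shisa9 reached 1.20 ± 0.54 TPM (n = 6) and stood above Cacng3, at 0.49 ± 0.19 TPM. Cacng4, at 1.90 ± 0.46 TPM, then lay below Cnih3 (2.30 ± 0.40) and Gsg1l (2.02 ± 0.37) in mean level, and their ranges overlapped. Over protein-coding transcripts alone, Cacng4 averaged 2.94 TPM in sham, already below Cnih3 (3.34) and Gsg1l (3.13). A change in the order of these genes after axotomy is therefore not shown. Cacng5 (4.79 ± 1.26) and Cacng2 (3.01 ± 0.93), which were apart in sham, overlapped after axotomy.

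**Figure D1:**
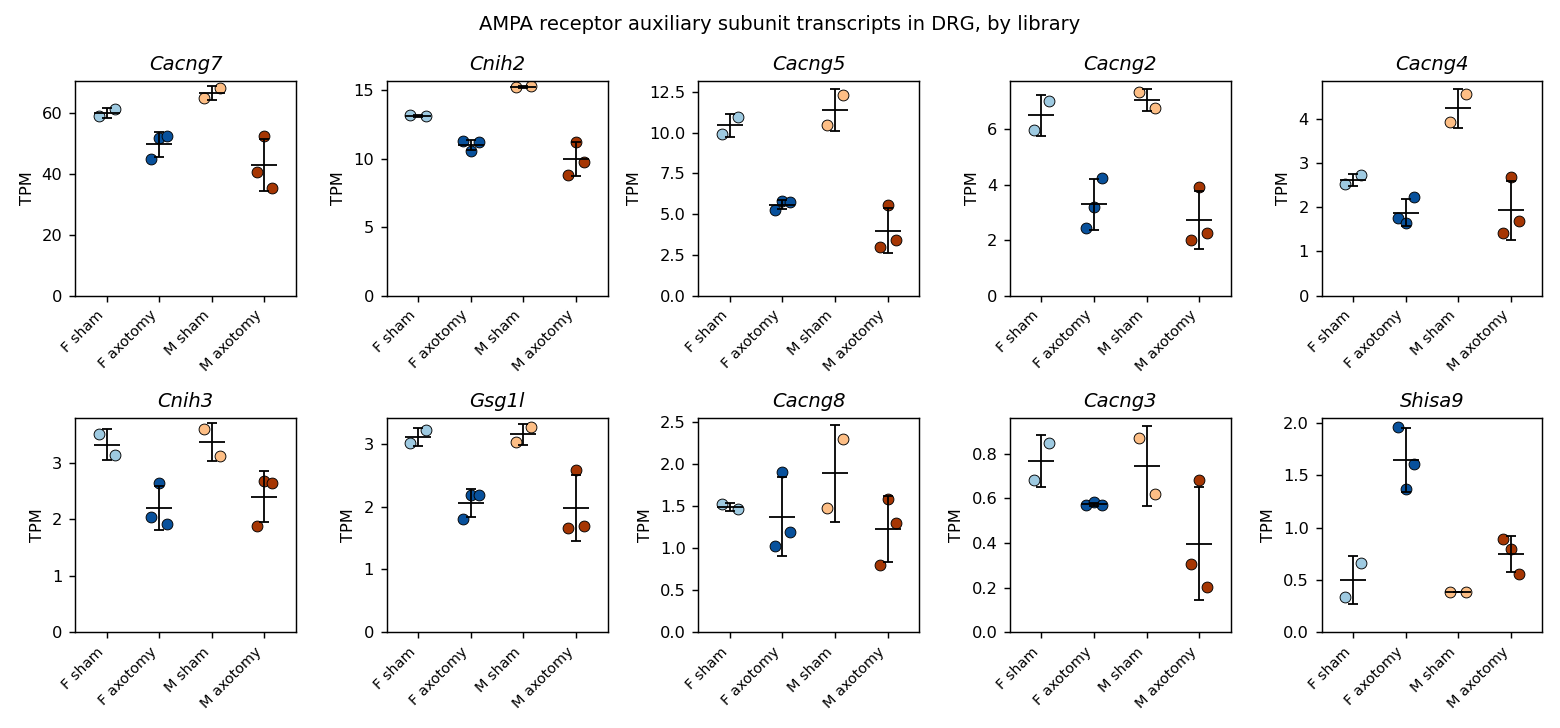
TPM of each auxiliary subunit gene (vertical axes, each from 0) in the 10 libraries, with 1 point per library, in order of the mean sham level; F is female, M is male, horizontal bars are group means and error bars SD. Cacng7 lies at 35.5 to 68.1 TPM and every other gene below 15.4 TPM, and Shisa9 is the only gene whose mean is higher after axotomy in both sexes.

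Whether the cut changed these genes was tested with edgeR in 1 fit of all 10 libraries, in which all 10 genes passed the filter on low counts, and DEGs have padj under 0.1 over the 20836 genes tested. In females 3 of the 10 were downregulated (Cacng2, Cacng5 and Gsg1l), where 9.7% of all genes tested were, and 1 was upregulated (Shisa9), against 10.5%. In males 6 were downregulated (Cacng2, Cacng4, Cacng5, Cacng7, Cnih2 and Gsg1l), against 19.4% of all genes, and 1, again Shisa9, was upregulated, against 22.6%. With the log2FC averaged over the sexes, 7 were downregulated (background 22.2%) and 1 upregulated (24.4%), and only Cacng3 and Cacng8 did not pass. The median log2FC of the 10 genes was −0.33 in females and −0.46 in males, beside 0.00 and 0.04 for all genes tested. The averaged comparison uses the same libraries as those of each sex and is not independent of them.

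The TPM of the median gene was itself 0.92-fold of sham in female and 0.89-fold in male axotomy libraries, a shift that the TMM scaling of the fit removes. A fall in TPM of that size is therefore no change in the fit. In TPM, all 6 axotomy libraries lay below all 4 sham libraries for 6 of the 10 genes (Cacng2, Cacng5, Cacng7, Cnih2, Cnih3 and Gsg1l), against 23.6% of the genes tested, and above them for 0 of the 10, against 6.7%.

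Of the type I TARPs, Cacng2 changed most. Its TPM was 5.99 and 7.03 in female and 7.34 and 6.78 in male sham libraries, and after axotomy 2.42, 3.20 and 4.25 in females and 2.00, 3.92 and 2.27 in males. Every axotomy library lay below every sham library, and the level was about 0.44 of sham on average. In the fit it fell in both sexes, with a female log2FC of −0.88 ± 0.23 (SE, as for every log2FC; padj = 0.036) and a male log2FC of −1.18 ± 0.23 (padj = 0.00446). The female call did not hold without female sham 1 (padj = 0.105), female sham 2 (padj = 0.237) or female axotomy 1 (padj = 0.109), nor with no filter on low counts (padj = 0.141).

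Cacng4, the gamma-4 gene, was downregulated in males (log2FC −0.95 ± 0.20, padj = 0.00622), and its female log2FC was −0.37 ± 0.21 (padj = 0.272). Its TPM was 2.52 and 2.71 in female and 3.91 and 4.55 in male sham libraries, and after axotomy 1.76, 1.64 and 2.22 in females and 1.41, 2.67 and 1.68 in males. The groups did not overlap within either sex, and the male sham libraries were the highest of all. Part of that height lay in the length correction. Salmon gave 6.63 and 7.58 reads of the male sham libraries, and none of any other library, to a processed transcript of 422 bases, Cacng4-202. With so short a transcript in the mean, the effective length of the gene was 2766 and 2715 bases in male sham and 3481 to 3597 bases in the other libraries. Counted over the protein-coding transcript Cacng4-201 alone, the male sham level was 3.06 and 3.48 TPM, and the other levels stayed as they were. The male log2FC was −0.57 to −1.19 over the alternatives and passed in each of them.

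**Figure D2:**
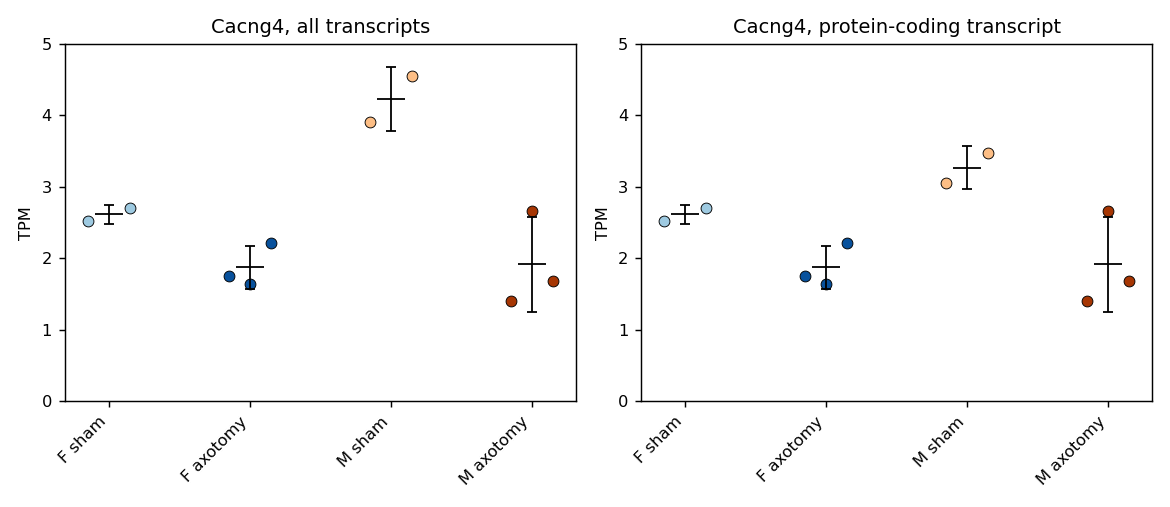
TPM of Cacng4 (vertical axes, from 0) in the 10 libraries, summed over all transcripts (left) and for the protein-coding transcript (right), with 1 point per library; horizontal bars are group means and error bars SD. The male sham libraries lie at 3.91 and 4.55 TPM on the left and at 3.06 and 3.48 TPM on the right, and male axotomy libraries lie below them in both panels.

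Cacng3 and Cacng8 were the TARPs of lowest level and did not pass in either sex. Cacng3 (gamma-3) had 24 to 102 counts per library, with a female log2FC of −0.30 ± 0.37 (padj = 0.638) and a male log2FC of −0.71 ± 0.37 (padj = 0.158). Its TPM in male axotomy libraries was 0.30, 0.68 and 0.20. The second of these libraries lay within the sham range of 0.62 to 0.87 TPM, and without it the male log2FC was −1.29 (padj = 0.00416). Cacng8 had 37 to 99 counts, with a female log2FC of −0.02 ± 0.34 (padj = 0.981) and a male log2FC of −0.43 ± 0.32 (padj = 0.336). Salmon gave 25.7, 35.6 and 31.2 reads of the female axotomy libraries, and none of any other library, to Cacng8-201. In the other libraries Cacng8-202 took most reads. The effective length of Cacng8 was 831 to 929 bases in female axotomy and 858 to 1233 bases in the other libraries, and it enters the female log2FC. At this depth the intervals of Cacng8, −0.68 to 0.65 in females and −1.06 to 0.20 in males (95%, from the SE), hold both no change and falls as large as that of Gsg1l.

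Of the type II TARPs, Cacng5 (gamma-5) had a TPM of 9.95 and 10.9 in female and 10.5 and 12.3 in male sham libraries, and after axotomy 5.24, 5.78 and 5.75 in females and 2.97, 5.57 and 3.40 in males. No axotomy library reached the sham range. Its female log2FC was −0.79 ± 0.18 (padj = 0.0182) and its male log2FC −1.33 ± 0.18 (padj = 9.97e-04). Averaged over the sexes the log2FC was −1.06 ± 0.13, beside −1.03 ± 0.16 for Cacng2. Only the fit without female sham 2 lost the female call (padj = 0.151). Its transcripts Cacng5-201 and Cacng5-202, both protein-coding, took 93.9% and 6.14% of its reads.

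Cacng7 read 44.9, 51.9 and 52.3 TPM in female axotomy and 40.6, 52.3 and 35.5 TPM in male axotomy libraries, all below its sham levels given above. After scaling it was downregulated in males (log2FC −0.44 ± 0.10, padj = 0.00745), and its female log2FC was −0.16 ± 0.10 (padj = 0.322). With 2690 to 4951 counts per library it was the best measured of the 10 genes, and its log2FC lay nearer 0 than that of Cacng2 or Cacng5 in both sexes.

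Of the cornichons, Cnih2 read 13.2 and 13.1 TPM in female and 15.2 and 15.3 in male sham libraries, and after axotomy 11.3, 10.6 and 11.2 in females and 8.80, 11.3 and 9.79 in males. Sham and axotomy did not overlap, but the difference was small, with a male log2FC of −0.42 ± 0.11 (padj = 0.0147) and a female log2FC of −0.14 ± 0.11 (padj = 0.449). Of its reads, 12.1% to 22.7% per library belonged to Cnih2-202, a transcript subject to nonsense-mediated decay, and the protein-coding transcript took the rest. Cnih3 was lower after axotomy in TPM, at 1.87 to 2.68 against 3.12 to 3.6 in sham. It passed only when averaged over the sexes (log2FC −0.38 ± 0.14, padj = 0.0464), its female log2FC being −0.48 ± 0.19 (padj = 0.129) and its male log2FC −0.29 ± 0.19 (padj = 0.281). The averaged call was lost without the length offset, without female sham 1 and without male sham 1, with padj up to 0.153, and DESeq2 called Cnih3 in females as well.

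Shisa9 was the only auxiliary subunit gene of the 10 that was upregulated. Its TPM was 0.34 and 0.66 in female and 0.39 and 0.38 in male sham libraries, and after axotomy 1.97, 1.37 and 1.60 in females and 0.89, 0.80 and 0.56 in males. Within each sex every axotomy library was above every sham library, and across the sexes male axotomy 3 lay within the sham range because of female sham 2. These levels rest on few reads, 44 to 73 counts in sham, 134 to 213 in female axotomy and 85 to 144 in male axotomy libraries. It rose 3.62-fold in females (log2FC 1.86 ± 0.31, padj = 0.00506) and 2.23-fold in males (log2FC 1.16 ± 0.31, padj = 0.0165). The male call was lost without male sham 1 (padj = 0.107) or male sham 2 (padj = 0.102). Some markers of CNS cells were higher in the same libraries as Shisa9. Mog read 0.093 to 0.13 TPM in sham, 0.82, 0.28 and 0.31 TPM in female axotomy and 0.042, 0.069 and 0.27 TPM in male axotomy libraries. Mobp read 1.17 to 1.36 TPM in sham, 4.81, 2.56 and 2.48 TPM after axotomy in females and 2.44, 0.73 and 1.92 TPM in males. Both were highest in female axotomy 1, as was Shisa9. In females 3 of the 9 tested genes of that list (Mog, Mobp and Gad2) were upregulated, against 10.5% of all genes, and 1 (Aqp4) downregulated, against 9.7%. In males 0 were upregulated, against 22.6%, and 2 downregulated, against 19.4%. Without female axotomy 1 the female log2FC of Shisa9 was 1.67 (padj = 0.0194), and the part of CNS tissue in its rise was not tested. The protein-coding transcript Shisa9-201 took most reads in every library, and a noncoding transcript of 1196 bases took up to 8.68% of them. The effective length of Shisa9 was 2754, 2881 and 2741 bases in female axotomy and 3332 and 3067 bases in female sham libraries. It enters the female log2FC. Over protein-coding transcripts alone, axotomy libraries (0.52 to 1.26 TPM) lay above all sham libraries (0.28 to 0.51 TPM). With both sexes together, mean axotomy TPM was 2.37-fold of mean sham TPM on this measure, against 2.71-fold over all transcripts.

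Gsg1l, a claudin-like relative of the TARPs that dampens AMPA receptor currents, fell in both sexes. Its TPM was 3.01 and 3.22 in female and 3.03 and 3.27 in male sham libraries, and after axotomy 1.80, 2.19 and 2.19 in females and 1.67, 2.59 and 1.69 in males. All axotomy libraries lay below sham. The log2FC was −0.48 ± 0.16 in each sex (female padj = 0.0678, male padj = 0.0361). Over the alternatives padj was at most 0.319 in females and 0.192 in males, and the female call was lost in 7 of 19, among them each fit without 1 of the 4 sham libraries, female axotomy 1 or female axotomy 2. The male call was lost without male sham 2 or male axotomy 1.

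**Figure D3:**
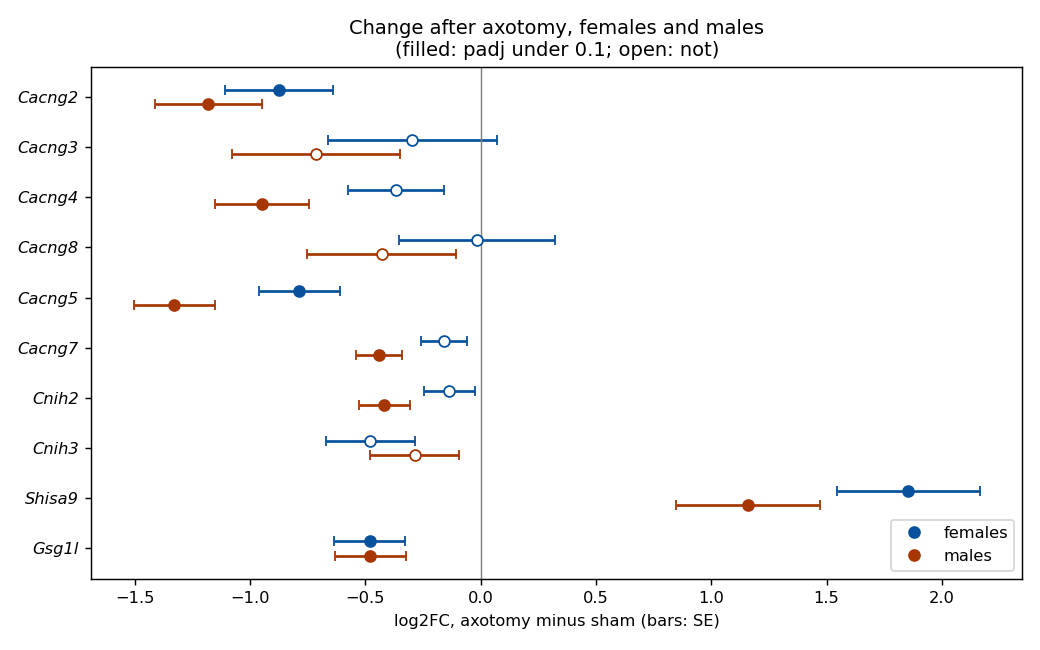
log2FC of axotomy minus sham (horizontal axis) for each gene in females and males, with the SE as bars, filled where padj was under 0.1 and open otherwise, type I TARPs at the top. Of the 10 genes, 9 lie below 0 in both sexes, and Shisa9 lies at 1.86 in females and 1.16 in males.

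The pore subunits fell as well. Gria2, whose edited subunit makes the channel impermeable to calcium, went from 12.8 ± 1.08 TPM in female sham and 13.7 ± 1.08 in male sham (SD, n = 2 each) to 6.19 ± 1.08 and 5.05 ± 1.47 after axotomy (n = 3 each), with a female log2FC of −0.94 ± 0.19 (padj = 0.0129) and a male log2FC of −1.25 ± 0.19 (padj = 0.00177). Gria4, the most abundant pore subunit in DRG, went from 48.8 ± 3.94 and 52.4 ± 2.38 to 29.6 ± 2.41 and 31.5 ± 4.28 TPM and fell in both sexes, with log2FC −0.61 (padj = 0.00147) and −0.54 (padj = 0.00137). Gria1 passed in males (log2FC −0.63, padj = 0.00359) and not in females (−0.31, padj = 0.116), and Gria3 passed in females (−0.38, padj = 0.0134) and not in males (−0.16, padj = 0.147). All 4 passed when averaged over the sexes. These are values per gene, and of the Gria3 reads only 45.1% to 64.5% per library belonged to protein-coding transcripts. A Gria3 transcript subject to nonsense-mediated decay took 21.0% of its reads in female sham and 8.58% in female axotomy libraries. The main protein-coding transcript took 48.7% and 60.1%. The female fall of Gria3 is therefore not shown for its protein-coding transcripts.

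Auxiliary transcripts were at least as abundant as pore transcripts in sham DRG when all 10 genes were summed, at 1.22 to 1.40 per pore transcript. The 6 TARP genes alone summed to 79.6 to 94.6 TPM in sham and the 4 pore genes to 78.3 to 89.9 TPM, a ratio of 0.98 to 1.13. After axotomy TARPs summed to 44.3 to 66.7 and pore subunits to 45.4 to 57.8 TPM, and the ratio was 0.89 to 1.28. Within females the ratio did not overlap, at 0.98 and 1.02 in sham and 1.21 to 1.28 after axotomy, whereas in males it was 0.99 and 1.13 in sham and 0.89 to 1.15 after axotomy. Type I TARPs summed to 10.7 to 14.2 TPM in sham and 4.53 to 8.86 TPM after axotomy, which was 13.5% to 15.3% and 9.41% to 13.3% of all TARP transcripts. The share of Cacng7 was 71.9% to 74.0% in sham and 78.4% to 84.4% after axotomy, with no overlap between the groups. Cacng2 and Gria2 stood in a ratio of 0.50 to 0.52 in sham libraries and 0.41 to 0.63 after axotomy. These sums and ratios are given as descriptions and were not tested.

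**Figure D4:**
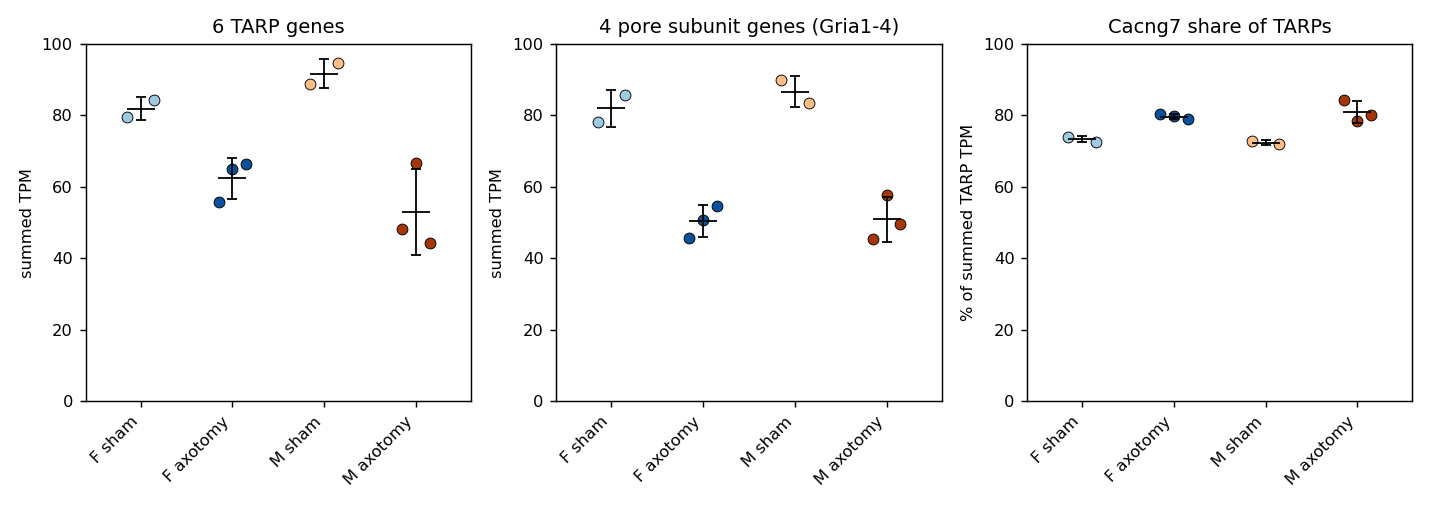
Summed TPM of the 6 TARP genes (left) and of Gria1 to Gria4 (middle), and the percentage of TARP TPM held by Cacng7 (right), in the 10 libraries, with vertical axes from 0 to 100, 1 point per library, group means as horizontal bars and SD as error bars. Sums lie at 78.3 or more in sham and at 66.7 or less after axotomy, and the Cacng7 share lies at 74.0% or less in sham and at 78.4% or more after axotomy.

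Other proteins found in native AMPA receptor complexes were given by a list of 19 genes. Averaged over the sexes, 9 were downregulated, where 22.2% of all genes were, and 2 upregulated, against 24.4%. The largest changes were of Vwc2l (brorin-like, log2FC −1.21, padj = 8.47e-04), Olfm3 (an olfactomedin, −1.02, padj = 2.69e-05) and Frrs1l, an assembly factor of the receptor in the endoplasmic reticulum (−0.97, padj = 1.69e-04). Frrs1l went from 19.3 ± 1.92 TPM in female sham and 20.4 ± 0.69 in male sham to 9.34 ± 1.71 and 8.87 ± 2.38 TPM. Of 20 scaffolds and trafficking adaptors, 11 were downregulated and 1 upregulated, beside the same background of 22.2% and 24.4%. Among them Nptx1, a secreted pentraxin that clusters AMPA receptors, had log2FC −0.97 (padj = 6.33e-04), and the postsynaptic scaffolds Shank1 and Shank2 had −0.91 (padj = 4.60e-04) and −0.71 (padj = 0.00936).

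A list of 7 genes held relatives of the TARPs, cornichons and Gsg1l that are not known as AMPA receptor auxiliary subunits. It also held Neto1 and Neto2, auxiliary subunit genes of kainate receptors that are not relatives of these families. Of these, the skeletal muscle subunit gene Cacng1, Cacng6 and Gsg1 had too few reads to be tested. Of the other 4, 3 were upregulated when averaged over the sexes, where 24.4% of all genes were, and 0 were downregulated, against 22.2%. Neto2, an auxiliary subunit of kainate receptors, was upregulated in both sexes, with a female log2FC of 0.75 ± 0.10 (padj = 0.00166) and a male log2FC of 0.52 ± 0.10 (padj = 0.00365). Cnih4, a cornichon of the early secretory pathway, rose with log2FC 0.29 (SE 0.06, padj = 0.0042) when averaged. The widely expressed cornichon Cnih1 had log2FC 0.15 (SE 0.05, padj = 0.0273), but in TPM it was 208 ± 9.43 in female sham, 210 ± 2.42 in male sham, 216 ± 5.96 in female axotomy and 198 ± 14.5 in male axotomy libraries, so in males its direction turned with the scale.

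The response of males and females was compared directly. The male log2FC was lower than the female for 8 of the 10 genes, 7 with a more negative value and Shisa9 with a less positive one, but the difference between the sexes passed for 0 of them by edgeR (padj = 0.452 to 0.997), where 0.072% of all genes passed, and for 0 by DESeq2. At an unadjusted p under 0.05 by edgeR it was 0 of the 10, against 11.4% of all genes. For Cacng5 the male log2FC was lower by 0.54 (SE 0.25, padj = 0.452), and for Cacng4 by 0.58 (SE 0.29, padj = 0.485). Cell type markers leaned apart between the sexes too, but few of these differences passed. The male minus female log2FC was below 0 for all 15 sensory neuron markers (median −0.24) and above 0 for all 7 Schwann cell (median 0.87), all 8 fibroblast and meningeal (1.32) and all 8 macrophage markers (1.11). Of the 6 satellite glia markers, 1 lay below 0 (median 0.40). The difference passed for 0 of the neuron, Schwann cell and macrophage markers. It passed for 2 of the 8 fibroblast and meningeal and 1 of the 6 satellite glia markers, against 0.072% of all genes. Among the 10 auxiliary subunit genes, those called in 1 sex alone (Cacng4, Cacng7 and Cnih2 in males) were not shown to differ between the sexes. These values depend on male axotomy 2, which had the highest TPM of the 3 male axotomy libraries for 9 of the 10 genes and, among them, the highest summed sensory neuron markers (12483 TPM) and the lowest fibroblast and meningeal markers (1068 TPM against 1658 and 2365). Without this library the difference passed for 3 of the 10 genes, Cacng4, Cacng5 and Cacng7, and for 10.6% of all genes, and males differed from females after axotomy for 4 of the 10, against 17.4% of all genes. The part of cell composition in this was not tested.

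In sham DRG 0 of the 10 genes differed between males and females by edgeR or DESeq2 (0.0432% of all genes did by edgeR), and 1, Cacng4, had an unadjusted p under 0.05. Its sham difference, male minus female log2 0.68 (SE 0.23), falls on the libraries with the short transcript described above. After axotomy 1 gene passed by edgeR, Shisa9, which was lower in males by 1.08 on the log2 scale (SE 0.26, padj = 0.0977), where 1.63% of all genes passed. The 3 female axotomy libraries (1.37 to 1.97 TPM) lay above the 3 male ones (0.56 to 0.89 TPM). The padj lies just under the threshold, and the call was lost in 14 of 18 alternatives, among them protein-coding transcripts alone (log2 difference −0.70, padj = 0.192) and no length offset (−0.78, padj = 0.132). The male minus female log2FC of Shisa9 was −0.70 (SE 0.43, padj = 0.554).

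Most sensory neuron markers moved with the auxiliary subunits, with a median log2FC of −0.32 when averaged over the sexes. Of the 15, 11 were downregulated, against 22.2% of all genes, and 1 was upregulated, against 24.4%. On levels divided by the summed neuron markers of each library, a scale added after the data were seen, Cacng2 and Cacng5 still lay below sham in all axotomy libraries, as 4.6% of all genes tested did. Cacng2 had 4.28 to 4.85 TPM per 10000 marker TPM in sham and 1.94 to 3.43 after axotomy, and Cacng5 had 6.94 to 7.76 and 2.88 to 4.70. Shisa9 lay above sham in all axotomy libraries on this scale, at 0.62 to 1.67 against 0.24 to 0.44, as did 27.5% of all genes. The other 7 genes, among them Cacng7, Cnih2 and Gsg1l, overlapped between sham and axotomy on it. Of these 7, Cacng4 lay below sham within each sex. In males this rests on sham levels raised by the short transcript described above. These were 3.91 and 4.55 TPM, against 3.06 and 3.48 TPM over protein-coding transcripts alone. A male fall of Cacng4 beyond the neuron markers is therefore not shown, and protein-coding levels were not tested on this scale. The markers are themselves regulated genes, so this scale is not a count of neurons.

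The pattern of Cacng7 over the 10 libraries was compared with that of 13665 other protein-coding genes with a mean of at least 1 TPM, by the root mean square difference of centred log2(TPM + 0.1). Nearest were Brsk2, a kinase gene of neuronal polarity (0.028), Ppfia3, the gene of liprin alpha-3 of the presynaptic active zone (0.034), and Dmtn, which encodes the actin-binding protein dematin (0.038), where the median gene lay at 0.25. Brsk2 was also close in level, with 65.1 to 73.2 TPM in sham and 39.2 to 58.9 TPM after axotomy.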

How the data were processed

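DRG RNA was sequenced as stranded poly-A libraries. Reads were trimmed by the authors (Trimmomatic 0.39) and assigned to Gencode M27 transcripts (GRCm39) in Salmon 1.3.0, correcting for sequence and GC bias. A strand setting of Salmon is not stated in the labels or methods. The deposited values are estimated counts per transcript, not normalized, and TPM, which the authors' Salmon run derived from counts and effective lengths. Both were summed per gene. Counts were rounded and fitted in R 4.3.3 with edgeR 4.0.16: filterByExpr (minimum count 10), TMM, average effective length as offset, 4 group means, quasi-likelihood F test, Benjamini-Hochberg adjustment over 20836 genes, padj under 0.1. The SE is the log2FC over the square root of F. DESeq2 1.42.0 was an alternative, with other scalings, filters, transcripts, a replicate block and each library left out. Simulated counts with 200 changed genes were used to test the model. Named genes were the 10 members, Gria1 to Gria4, up to 3 genes with the largest averaged change per other list, and the 3 nearest to the most abundant member. Further genes (markers) are named only for their level. The members and lists were chosen with earlier results of these data known. No amino acid sequence was used here. Levels in TPM carry no error beyond the spread between libraries.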

Additional observations from a re-analysis of the deposited data

How the results depend on the processing

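Over 19 alternatives, 5 to 8 of the 10 genes were called in males (main 7), and over 18 alternatives 7 to 9 in the averaged comparison (main 8). In females the number was 4, and 1 to 5 with single libraries left out, with 2 without female sham 1, 1 without female sham 2 and 2 without female axotomy 1. The difference between the sexes was called for 0 genes, and for 0 to 3 with single libraries left out, the 3 being found without male axotomy 2. Males against females after axotomy gave 1 gene (Shisa9), 0 with RLE normalization, with a total of at least 10 counts, with no length offset, with protein-coding transcripts only and with padj under 0.05, and 0 to 4 with single libraries left out, the 4 without male axotomy 2 (17.4% of all genes then passed). Cacng8 in females had log2FC −0.32 to 0.14 with single libraries left out and turned its sign in 3 fits, with log2FC 0.02 without female sham 1, 0.14 without female axotomy 1 and 0.10 without female axotomy 3, none called. Of all genes, 4216 were called in females (838 to 5630 with single libraries left out, 5767 at most over all alternatives). The number of genes whose sham and axotomy libraries did not overlap was 6 below and 0 above sham in TPM, 5 and 1 in CPM (15.8% and 15% of all genes), 6 and 1 over protein-coding transcripts (27.7% and 7.06%) and 2 and 1 relative to neuron markers (4.6% and 27.5%), the last 2 scales being added after the data were seen. Of 13 pairs of same-numbered libraries, 4 had a residual r over 0.1, 3 of them between replicates 1 of female sham, female axotomy and male axotomy (0.20 to 0.36), and the others ran down to −0.18, so the numbers were not taken to pair the libraries. The fit with a replicate block called 4 genes in females, 7 in males and 8 averaged, the same genes as without the block. Depth limits Cacng3, Cacng8 and Shisa9, which had 213 counts or fewer in every library.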
